A study of Mus musculus with 16 samples.

Results

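The genes described here encode splicing factors, the kinases and cyclins that act on them, and a few other genes known for regulated introns. They were 42 named RNA-processing genes, picked by symbol out of the 41325 genes in the count tables, and all 42 were present in both tables and passed the expression filter in every comparison. The list was drawn up with earlier results of these same libraries in view, including their spread within groups and their differences after interleukin-13 (IL-13), so those values are given as a description. By role the list held 8 SR proteins, 10 SR-related proteins, 6 CLK kinases and L-type cyclins, 9 proteins of the U1 particle or associated with the spliceosome, 6 hnRNP, paraspeckle and DEAD-box proteins, and 3 genes outside the splicing machinery, Mdm4, Ogt and Mat2a.

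Splicing removes introns from a pre-mRNA. SR proteins, named for their arginine- and serine-rich domains, bind exons and recruit the spliceosome, CLK kinases phosphorylate those domains, and hnRNP proteins often act against them. Many genes of this machinery control their own output: they make transcripts that keep an intron and stay in the nucleus, or that include a poison exon and are degraded by nonsense-mediated decay. In fat cells alternative splicing sets the isoform of metabolic regulators such as Lpin1.

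RNA came from immortalized preadipocytes, precursors of fat cells kept as a cell line, of wild-type mice of the strain C57Bl6/J. There were 4 groups of 4 libraries: untreated cells at day 0 of differentiation, cells pre-treated with Il13 for 16 h at day 0, untreated cells at day 6, and pre-treated cells at day 6. Polyadenylated RNA was sequenced from 2 ug of total RNA with a strand-specific kit. No label says whether the 4 libraries of each group were separate cultures or how many immortalized lines there were. The p-values therefore measure how far libraries varied, and that variation may be technical. In bulk RNA, fewer cells expressing a gene and less RNA per cell cannot be told apart.

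Library totals lay between 15253031 and 18112087 counts. Fat cell markers summed to 190 to 230 CPM (counts scaled to library size) at day 0 and to 19260 to 21950 CPM at day 6, and stromal markers to 8277 to 14430 and 2089 to 2703 CPM. The stromal markers did not all fall. Of 9 tested between the days in untreated cells, 5 were called lower and 2 higher (39% and 41.5% of all genes). The deposited RPKM values showed how many reads each library had in all, and the share that was in no gene's count was 6.15, 5.61, 4.21 and 5.44% in untreated day 0 libraries 1 to 4 and 4.35, 4.53, 3.93 and 3.66% after IL-13. At day 6 it was 6.94, 6.28, 4.85 and 4.99% in untreated and 4.59, 4.15, 4.42 and 4.29% in IL-13 libraries. Untreated libraries 1 and 2 of day 6 thus stood highest, and the groups overlapped at day 0 and did not at day 6. The number of genes with at least 1 count was also higher in untreated than in IL-13 libraries, 15674 to 16201 against 15447 to 15667 at day 0 and 15753 to 16054 against 15498 to 15718 at day 6. What the uncounted reads were is not given in the sources used here, and their part in the differences below was not tested.

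The introns that these genes can keep are shown here at their 5′ ends, because 29 of the 42 genes have a coding transcript with an intron that the reference annotates as kept whole in another transcript. Each line gives the last 10 exon bases in lower case and the first 20 intron bases in capitals, read 5′ to 3′ on the transcript strand. They come from the GENCODE M21 transcripts on GRCm38, in which a transcript of the same gene retains the whole intron. The kinase introns lie just downstream of a 91-base exon in Clk1 and Clk4, or at the matching place in Clk2 and Clk3: chr1:58419734-58420120 (minus strand, Clk1), chr11:51273169-51273559 (plus, Clk4), chr3:89169703-89170048 (plus, Clk2) and chr9:57758351-57758626 (minus, Clk3).
Clk1: agtgcaagatGTATAGAATATTTTTCAACA
Clk4: agagcaagatGTATAGAATATTTTTCAACA
Clk2: caagagcgatGTACAAGCCAAATCGTAACA
Clk3: caagagcgatGTACAGCCACCTTTCGTAAA
The Clk1 and Clk4 junctions were identical at 29 of 30 bases, including all of the intron bases shown. Clk2 and Clk3 matched each other at 19 of 30, and Clk1 matched each of them at 14. Upstream of the same 91-base exon (58420121 to 58420211 on chromosome 1 in Clk1, 51273078 to 51273168 on chromosome 11 in Clk4), the Clk1 and Clk4 introns were identical at 17 of 30 bases.

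A further set shows retained introns of Rsrp1 and the L-type cyclins, among the largest falls after IL-13, and of Srsf5, whose libraries spread most at day 6 among the SR proteins. Their positions are chr4:134925433-134926734 (plus strand, Rsrp1), chr4:155817988-155820328 (plus, Ccnl2), chr3:65948791-65950479 (minus, Ccnl1) and chr12:80947866-80949094 (plus, Srsf5).
Rsrp1: aaaggtggagGTAAGTGCCTTCAGGAAGCT
Ccnl2: agactgcatgGTGAGTTGATTTTCCTTGTT
Ccnl1: aaactgcctgGTAAGTTCCTCTTTTACATT
Srsf5: cagctggcagGTTTGTTGAAATACAGTTTT
The Rsrp1, Ccnl2 and Ccnl1 introns shown begin with GTAAGT or GTGAGT, the letters of a strong 5′ splice site. Those shown for Srsf5 and the 4 kinases do not. Other annotated retained introns of Srsf5 and of each of the 4 kinases do begin with these letters, and another of Ccnl1 does not. The contrast is thus between the introns shown and not between the genes. Over all 76 annotated retained introns of these genes, 24 (31.6%) began with either run of letters, against 23.9% of 7275 such introns in the protein-coding genes tested. The introns of the list had a median length of 679 bases and a median GC content of 38.1%, against 277 bases and 51.3% for the 7275.

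The list was picked to hold splicing genes and genes known for regulated introns, so the annotation shares below describe that choice and nothing more is read from them. In the annotation, 38 of the 42 genes (90.5%) had a transcript of the retained-intron class, against 58.7% of the 12418 protein-coding genes tested in any comparison. A transcript subject to nonsense-mediated decay was annotated for 36 (85.7% against 28.8%), and an intron of a coding transcript that another transcript keeps whole for 29 (69.0% against 26.7%). The share of a gene's exon bases found only in retained-intron transcripts had a median of 39.2%, against 6.23%. It reached 74.4% in Snrnp70 and 50% or more in 19 genes, and was 0 in Ddx17, Hnrnph1, Pnisr and Sfpq. The exon lengths behind the deposited RPKM values included these bases for 40 of the 42 genes, but a count per gene does not show where in the gene its reads fell. The values below are therefore levels of the whole gene, and how much of each came from intron-containing RNA was not measured.

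**Figure D1:**
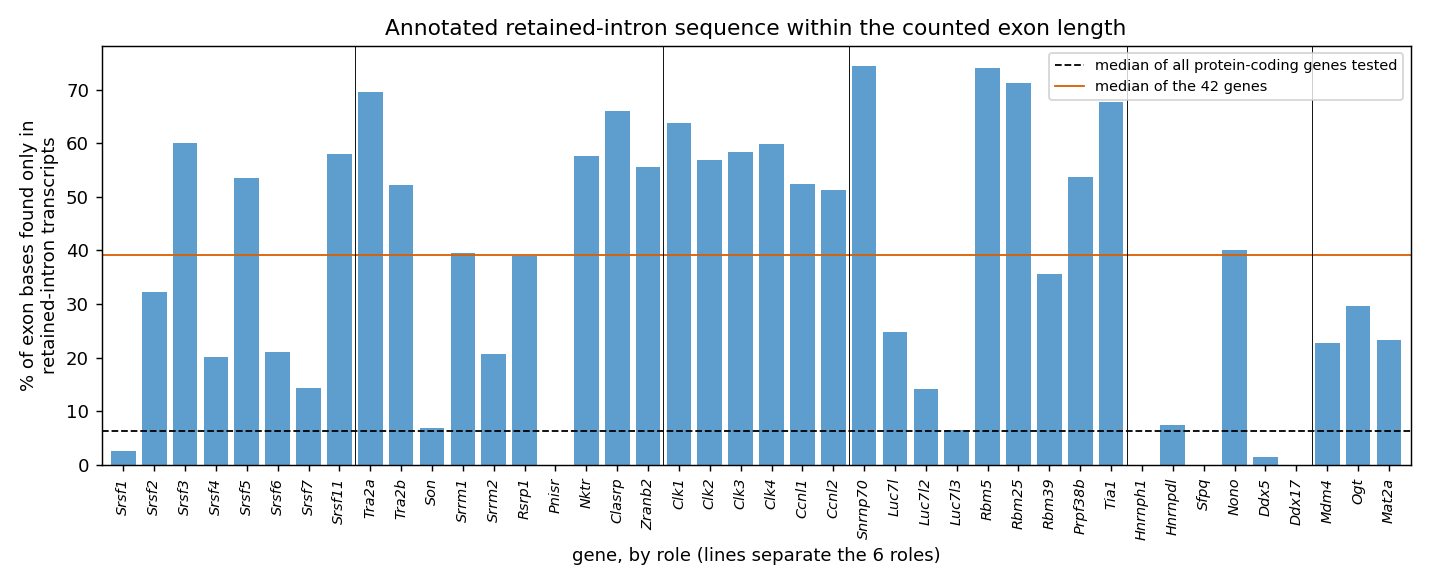
Share of each gene's annotated exon bases that occur only in transcripts of the retained-intron class, in percent, for the 42 genes ordered by role; the lines mark the medians of the 42 genes (39.2%) and of all protein-coding genes tested (6.23%). Bars of Snrnp70, Rbm5 and Rbm25 pass 70%, and 4 genes have no such bases. Genes known for regulated introns were picked for the list.

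Across the list, IL-13 pre-treated cells had lower levels on both days. At day 0, 29 of the 42 genes fell, 1 rose (Snrnp70) and 12 did not pass the test, an adjusted p under 0.05 in edgeR's quasi-likelihood fit over all genes. Of the 12274 genes tested, 24.2% were called lower and 23.7% higher. The median log2 fold change was -0.30 over the list and -0.01 over all genes. At day 6, 27 fell, 0 rose and 15 did not pass, where 4.34% of 12352 genes were called lower and 2.21% higher. The medians at that day were -0.51 for the list and 0.01 for all genes. Since the list was drawn up with these comparisons known, nothing is read from those shares.

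The kinase and cyclin group carried the lowest values, with a median of -0.83 at day 0 and -0.95 at day 6, and the SR proteins those nearest to 0, -0.08 and -0.27. In all, 39 of the 42 genes had a log2 fold change below 0 at day 0 and 40 at day 6. In CPM the highest IL-13 library was lower than the lowest untreated one for 21 genes at day 0 and for 32 at day 6, which was so for 19.5% and 8.28% of all genes tested. Differences of 2-fold or more were found for Rsrp1, Ccnl2, Pnisr, Ccnl1 and Mdm4 at day 0, and for Rsrp1, Ccnl2, Pnisr, Ccnl1, Clk1, Clasrp and Tia1 at day 6. Among all genes tested, 267 of 12274 at day 0 and 122 of 12352 at day 6 were called lower by 2-fold or more. Both days had calls for 23 genes. How many of all genes tested were called on both days or on 1 alone was not counted, so nothing is read from this division. Srsf5, Son, Srrm2, Zranb2, Luc7l3, Ddx5 and Snrnp70 (higher) were called at day 0 alone, Srsf2, Srsf11, Clk3 and Luc7l at day 6 alone, and Srsf1, Srsf3, Srsf4, Srsf7, Tra2b, Srrm1, Sfpq and Nono on neither day.

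The day 6 count rested on single libraries. It went from 27 to 11 without untreated library 1, to 4 without untreated library 2, to 3 without IL-13 library 2 and to 9 without IL-13 library 3, and only Clasrp, Clk2 and Hnrnpdl were called whichever of the 8 libraries was left out. The median of the list stayed between -0.59 and -0.44 in those fits. Calls over all genes moved as well. With all libraries 536 genes were called lower, and without untreated library 1 or 2 these were 97 and 55. Without IL-13 library 2 or 3 they were 58 and 186, and without IL-13 library 1 they were 1340. At most 35 genes of the list were called lower with 1 library left out. At day 0, 26 of the 30 calls were made in all 8 such fits, but without untreated libraries 1 and 4 together 19 genes were called lower and Snrnp70 was not called. Scaling by total count moved the median of all genes to -0.13 at day 0, with 1682 called higher and 4523 lower in place of 2912 and 2969, and the list to 38 lower and 0 higher. At day 6 it gave 53 higher and 1032 lower in place of 273 and 536, and 32 genes of the list lower.

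**Figure D2:**
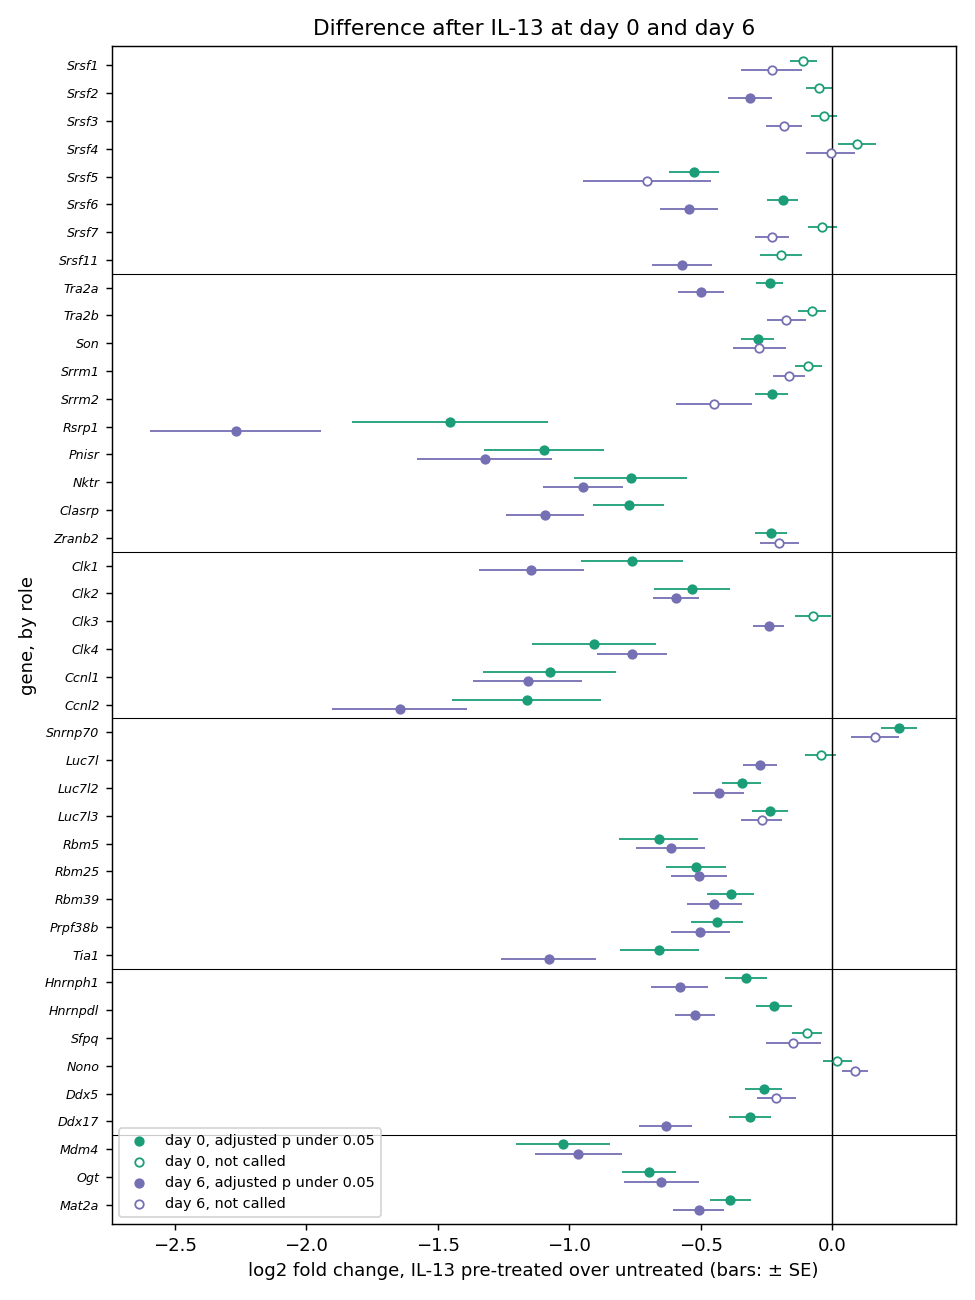
Log2 fold change after IL-13 (IL-13 pre-treated over untreated) at day 0 and day 6 for each of the 42 genes, with bars of 1 SE; filled points have an adjusted p under 0.05. Most points lie left of 0, down to -2.27 for Rsrp1 at day 6, and Snrnp70 and Nono lie right of 0 on both days.

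Of the 8 SR proteins 2 fell at day 0 and 3 at day 6, and 0 rose. Among all genes 24.2% were called lower at day 0 and 4.34% at day 6, and the SR proteins were near that share at day 0. These shares also stand beside the counts of the other roles below. Srsf5, which binds exonic enhancers, had counts of 2490, 1636, 1550 and 2130 in untreated day 0 libraries 1 to 4 and of 1299, 1221, 1242 and 1168 after IL-13. The groups did not overlap, with a log2 fold change of -0.53 (SE 0.09), the lowest of the SR proteins. At day 6 its counts were 2578, 2573, 1972 and 3969 in untreated and 1670, 1432, 1090 and 2530 in IL-13 libraries. Library 4 was the highest of both day 6 groups, the groups overlapped, and the log2 fold change of -0.71 (SE 0.24) did not pass the test.

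Srsf2, long known as SC35 and found in nuclear speckles, had counts of 2343, 1982, 2034 and 2279 and, after IL-13, 1846, 1942, 2071 and 1773 at day 0. Those groups overlapped, and the log2 fold change was -0.05 (SE 0.05). At day 6 the counts were 2125, 2130, 1735 and 1843 against 1657, 1380, 1471 and 1721, without overlap, and the gene fell by 0.31 on the log2 scale. Exons of Mettl23 and Mfsd11 on the other strand cover 25.3% of its exon bases, and whether the counting used strand is not given in the sources used here, so this value is uncertain.

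Srsf6, a regulator of exon choice, had counts of 2556, 1960, 1881 and 2249 in untreated and 1738, 1743, 1730 and 1704 in IL-13 libraries at day 0. All IL-13 counts were lower, but the groups overlapped in CPM, and the fall of 0.19 was not called without untreated library 1 (-0.14) or without IL-13 library 1 (-0.18) or 3 (-0.17). At day 6, 2275, 2225, 1646 and 2381 stood against 1604, 1161, 1310 and 1684, with no overlap in CPM and a fold change of -0.55 (SE 0.11). For Srsf11, a speckle-associated SR protein, the day 0 counts were 1848, 1325, 1224 and 1652 and 1271, 1197, 1183 and 1157, with overlap and a log2 fold change of -0.20 (SE 0.08). Its day 6 counts of 1532, 1664, 1081 and 1368 and 1065, 836, 780 and 1066 overlapped neither as counts nor as CPM, and it fell by 0.57.

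Srsf3, the smallest SR protein, and Srsf7 both also serve mRNA export. Srsf3 had counts of 4569, 3883, 3779 and 4180 and, after IL-13, 3805, 3572, 3943 and 3380 at day 0, and 3272, 3446, 2867 and 3234 and 3019, 2518, 2477 and 3147 at day 6. Srsf7 had 1501, 1173, 1216 and 1422 and 1217, 1203, 1252 and 1054 at day 0, and 1265, 1339, 1124 and 1214 and 1076, 973, 971 and 1146 at day 6. At day 0 the groups overlapped for both genes, with log2 fold changes of -0.03 (SE 0.05) and -0.04 (SE 0.05). At day 6 all IL-13 libraries were lower in CPM, and the values of -0.18 (SE 0.07) and -0.23 (SE 0.06) did not pass the test.

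Srsf4, an SR protein of the same family as Srsf5 and Srsf6, had the group's only fold change above 0 at day 0 and the one nearest to 0 at day 6, with counts of 844, 577, 751 and 843 against 743, 767, 755 and 668 at day 0 and 902, 830, 845 and 973 against 724, 895, 886 and 979 at day 6. Its groups overlapped on both days, with log2 fold changes of 0.09 (SE 0.07) and -0.00624 (SE 0.09). Total count scaling turned the day 0 value to -0.03, and 43.0% of its exon bases lie under Gm12992 on the other strand. Srsf1, the last of the group, was at -0.11 (SE 0.05) and -0.23 (SE 0.12) and passed on neither day.

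Of the 10 SR-related proteins 8 fell at day 0 and 5 at day 6, and 0 rose. Rsrp1, an arginine- and serine-rich protein of little known function, had the lowest fold change of all 42 genes on both days. Its counts were 1364, 593, 445 and 1223 in untreated day 0 libraries and 327, 253, 272 and 337 after IL-13. Untreated libraries 1 and 4 were far above libraries 2 and 3, and every IL-13 library was below all of them, with a log2 fold change of -1.45 (SE 0.37). That value was -1.39 without IL-13 library 2, and the same without library 3, and was not called in either fit. At day 6 the counts were 2425, 2041, 973 and 1294 in untreated and 472, 278, 262 and 370 in IL-13 libraries. The lowest untreated library, at 973, lay well above the highest IL-13 library, at 472, and Rsrp1 fell by 2.27 on the log2 scale, from 104 ± 42.6 to 21.4 ± 5.57 CPM (mean ± SD, n = 4).

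Pnisr, an SR-rich protein that interacts with Pinin, had counts of 954, 533, 426 and 789 and 329, 274, 240 and 299 at day 0. At day 6 they were 907, 891, 473 and 934 in untreated and 350, 256, 192 and 470 in IL-13 libraries. The groups overlapped on neither day, and the fold changes were -1.10 (SE 0.23) and -1.32 (SE 0.26). The day 6 counts of IL-13 library 4 and untreated library 3 nearly touched, at 470 and 473.

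Nktr, a large cyclophilin with an SR domain, had counts of 2999, 1755, 1438 and 2760 against 1348, 1155, 1073 and 1184 at day 0. Here again untreated libraries 1 and 4 were highest, and the log2 fold change of -0.77 (SE 0.21) was not called without untreated library 1 (-0.63) or without IL-13 library 2 (-0.76), 3 (-0.70) or 4 (-0.79). At day 6 its counts of 2330, 2405, 1611 and 1919 and 1305, 1041, 724 and 1175 did not overlap, with -0.95 (SE 0.15). An antisense gene, E530011L22Rik, covers 10.3% of its exon bases.

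Son and Srrm2 are the scaffolds on which nuclear speckles form. Son had counts of 7669, 5816, 5678 and 6874 and 5336, 4716, 4770 and 4681 at day 0, and 6438, 6369, 4732 and 5350 and 5343, 4724, 3830 and 4781 at day 6. Srrm2 had 13446, 10273, 10999 and 12021 and 9990, 9107, 8481 and 8746 at day 0, and 10350, 10189, 7551 and 8555 and 7924, 7025, 4428 and 7297 at day 6. Both genes fell at day 0 with no overlap, by 0.28 and 0.23 on the log2 scale. At day 6 Son was at -0.28 (SE 0.10) with overlapping groups, and Srrm2 at -0.45 (SE 0.14) with all IL-13 libraries lower in CPM, the lowest being library 3, and neither passed.

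Tra2a and Tra2b are the mammalian transformer-2 proteins, which bind purine-rich exonic enhancers. Tra2a had counts of 2140, 1701, 1714 and 1933 and 1535, 1425, 1518 and 1326 at day 0, and 1416, 1434, 1097 and 1386 and 1013, 826, 795 and 1093 at day 6. It did not overlap on either day and fell by 0.24 and 0.50. Tra2b had 2241, 1701, 1809 and 1988 and 1621, 1639, 1864 and 1574 at day 0, and 1948, 2213, 1871 and 2206 and 2012, 1634, 1494 and 2073 at day 6. Its groups overlapped on both days, at -0.08 (SE 0.05) and -0.17 (SE 0.07), neither of which passed, so that of these paralogs Tra2a alone was called. Whether the paralogs differed from each other was not tested.

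Srrm1, a coactivator that joins SR proteins bound to exons, had counts of 3873, 3007, 3262 and 3514 and 2983, 2994, 3097 and 2636 at day 0, and 2765, 2932, 2538 and 3014 and 2487, 2551, 2063 and 2808 at day 6. Neither day passed, at -0.09 (SE 0.05) and -0.17 (SE 0.06). Clasrp, a protein that associates with CLK4, fell from 11.7 ± 2.27 to 6.92 ± 0.599 CPM at day 0 and from 16.9 ± 2.43 to 7.81 ± 1.58 CPM at day 6. Zranb2, a zinc finger protein with an SR domain, fell by 0.23 at day 0 and was at -0.20 (SE 0.07) at day 6.

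CLK kinases and L-type cyclins were lower in 5 of 6 cases at day 0 and in 6 of 6 at day 6. Clk1, whose retained intron is shown above, had counts of 766, 464, 354 and 677 in untreated and 345, 280, 294 and 291 in IL-13 libraries at day 0. Every IL-13 count was lower, although CPM overlapped at untreated library 3, and the fold change was -0.76 (SE 0.20). At day 6 the counts were 1137, 1091, 678 and 758 against 549, 383, 298 and 411, without overlap, and Clk1 fell by 1.15 (SE 0.20).

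Clk4 carries the almost identical junction. Its counts were 359, 214, 156 and 374 in untreated and 135, 133, 131 and 134 in IL-13 libraries at day 0. The IL-13 libraries lay between 131 and 135 counts, while the untreated ones ranged from 156 to 374, and Clk4 fell by 0.91. At day 6, 534, 529, 381 and 414 stood against 323, 235, 219 and 307, again without overlap, and the fold change was -0.76 (SE 0.13).

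Clk3, with a different junction, had counts of 927, 660, 755 and 929 and 765, 702, 727 and 642 at day 0, and 797, 823, 726 and 852 and 666, 701, 618 and 680 at day 6. It had the fold changes nearest to 0 in the group, -0.07 (SE 0.07) with overlap at day 0 and -0.24 (SE 0.06) without overlap at day 6, and the second was called. Edc3 covers 15.2% of its exon bases on the other strand. Clk2 lay between these kinases, at -0.53 (SE 0.14) and -0.59 (SE 0.09), and fell on both days. Differences between the kinases were not tested.

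Ccnl1 and Ccnl2 encode the L-type cyclins, partners of the kinase CDK11 that act on splicing. Ccnl1 had counts of 492, 261, 188 and 401 and 134, 149, 144 and 149 at day 0, and 941, 941, 650 and 924 and 556, 329, 229 and 418 at day 6. Ccnl2 had 788, 380, 306 and 661 and 226, 220, 185 and 229 at day 0, and 2106, 1820, 930 and 1524 and 657, 483, 338 and 538 at day 6. For both cyclins the untreated day 0 libraries fell into a higher pair, 1 and 4, and a lower pair, 2 and 3, and all IL-13 libraries were lower still. The day 0 fold changes were -1.07 (SE 0.25) for Ccnl1 and -1.16 (SE 0.28) for Ccnl2. At day 6 they were -1.16 (SE 0.21) and -1.65 (SE 0.26), also without overlap. At day 6, with no filter on low counts, Ccnl1, Clk3, Pnisr and Ogt missed the threshold.

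In the group of the U1 particle and spliceosome-associated proteins 7 of 9 genes fell on each day. Snrnp70, the protein that binds the RNA of the U1 particle, was the exception to the direction of the list. Its counts were 2202, 1832, 2308 and 2096 in untreated and 2277, 2415, 2564 and 1967 in IL-13 libraries at day 0. The groups overlapped, in that IL-13 library 4 lay below untreated library 3 in CPM (126 and 133), and Snrnp70 rose from 118 ± 10.1 to 142 ± 13.2 CPM, 0.25 (SE 0.07) on the log2 scale. Under total count scaling the value was 0.14 and did not pass. At day 6 the counts of 1495, 1649, 1656 and 1781 and 1541, 1735, 1958 and 2009 overlapped, and 0.16 (SE 0.09) did not pass.

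The LUC7-like proteins bind the U1 particle at the 5′ splice site. Luc7l3 had counts of 1569, 1188, 1114 and 1268 against 1089, 953, 993 and 944 at day 0 and 1397, 1572, 1152 and 1550 against 1253, 1073, 1004 and 1308 at day 6. It overlapped in CPM on both days, and fell at day 0 by 0.24, while the day 6 value of -0.27 (SE 0.08) did not pass. Luc7l2 fell by 0.34 at day 0 and by 0.43 at day 6, and 18.9% of its exon bases lie under Gm26699 on the other strand. Luc7l was at -0.04 (SE 0.06) at day 0 and fell by 0.27 at day 6.

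Among the RNA-binding motif proteins, Rbm39 cooperates with U2AF, Rbm25 works with LUC7-like proteins at the 5′ splice site, and Rbm5 blocks the switch from exon definition to intron definition. Rbm39 had counts of 3129, 2448, 2008 and 2897 and 1950, 1791, 1808 and 1764 at day 0, and 3025, 3407, 2373 and 3367 and 2464, 2082, 1667 and 2589 at day 6. It overlapped in CPM at day 0 and not at day 6, with -0.39 (SE 0.09) and -0.45 (SE 0.10). Rbm25 had 1989, 1363, 1188 and 1773 and 1105, 996, 945 and 964 at day 0, and 1841, 1957, 1366 and 1648 and 1343, 1024, 997 and 1370 at day 6. It did not overlap in CPM on either day, and fell by 0.52 and 0.51.

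Rbm5 had the lowest day 0 fold change of this group, with counts of 2607, 1646, 1395 and 2282 against 1196, 1081, 1116 and 1156 and a log2 fold change of -0.66 (SE 0.15). Its day 6 counts were 2011, 2151, 1623 and 1798 against 1579, 1232, 900 and 1188, with -0.61 (SE 0.13). No Rbm5 library of the IL-13 groups reached an untreated one on either day. Tia1, which binds U-rich stretches next to weak 5′ splice sites, had counts of 870, 564, 474 and 805 and 427, 332, 414 and 391 at day 0, and 1020, 922, 588 and 725 and 488, 335, 286 and 418 at day 6. Its groups were also separate on both days, and it fell by 0.66 and 1.08, the lowest of the group at day 6. Prpf38b, linked to the activated spliceosome, fell by 0.44 and 0.50.

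Of the 6 hnRNP, paraspeckle and DEAD-box genes 4 fell at day 0 and 3 at day 6. Hnrnph1, which binds runs of G, had counts of 4498, 3242, 2997 and 4072 and 2894, 2654, 2625 and 2572 at day 0, and 2595, 2694, 2018 and 2129 and 1834, 1408, 1307 and 1699 at day 6. The groups overlapped in CPM at day 0 and not at day 6, with fold changes of -0.33 (SE 0.08) and -0.58 (SE 0.11). Ddx5 and Ddx17 are paralogous RNA helicases that unwind splice site RNA. Ddx5 had 12177, 9294, 8409 and 10358 and 8091, 7354, 7912 and 7299 at day 0, and 11752, 12403, 10142 and 13487 and 11101, 9584, 8452 and 11571 at day 6. It fell at day 0 by 0.26 with overlap in CPM and was at -0.21 (SE 0.07) at day 6, and 14.6% of its 50-base stretches also occur in another gene, chiefly Gm12183.

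Ddx17 had counts of 8240, 5788, 5594 and 7686 and 5276, 4783, 5108 and 4835 at day 0, and 7336, 7304, 5371 and 6551 and 4839, 3917, 3435 and 4740 at day 6. Its groups were separate on both days, and it fell by 0.31 and 0.63, the second being the lowest of the group. Hnrnpdl, an hnRNP D-like protein with an autoregulated last exon, fell by 0.22 at day 0 and 0.52 at day 6, and the day 0 call was lost without untreated library 1 (-0.15) or 4 (-0.20).

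Nono and Sfpq form the core pair of paraspeckles, nuclear bodies built on the long RNA Neat1. Nono had the highest fold change of the group, with counts of 10105, 9007, 9788 and 9519 and 9222, 8686, 9716 and 8089 at day 0 and 5362, 5627, 5322 and 6128 and 6083, 5700, 5455 and 6236 at day 6. Its groups overlapped on both days, with 0.02 (SE 0.06) and 0.09 (SE 0.05), neither called, and both values turned below 0 under total count scaling (-0.10 and -0.00212). Sfpq was at -0.10 (SE 0.06) and -0.15 (SE 0.10) and passed on neither day.

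Mdm4, Ogt and Mat2a, the 3 genes with regulated introns outside the splicing machinery, fell on both days. As an inhibitor of p53, Mdm4 depends on the inclusion of an exon, and it had counts of 1267, 804, 643 and 1101 and 475, 420, 373 and 434 at day 0, and 1891, 1931, 1210 and 1642 and 1073, 797, 574 and 939 at day 6. The groups were separate, with -1.02 (SE 0.18) and -0.97 (SE 0.17). Ogt, which adds O-GlcNAc to proteins and keeps an intron when that modification is plentiful, had 2222, 1582, 1343 and 1904 and 1017, 923, 986 and 1028 at day 0, and 2578, 2681, 1588 and 2044 and 1622, 1345, 1131 and 1498 at day 6. In CPM no IL-13 library reached an untreated one, and Ogt fell by 0.70 and 0.65. Mat2a makes S-adenosylmethionine and is spliced according to the supply of it. Its counts were 2228, 1635, 1550 and 2146 and 1408, 1270, 1278 and 1302 at day 0, and 4090, 3911, 3042 and 3738 and 2999, 2295, 2164 and 2817 at day 6, and it fell by 0.39 and 0.51 without overlap. The antisense RNA Particl covers 11.3% of the exon bases of Mat2a.

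**Figure D3:**
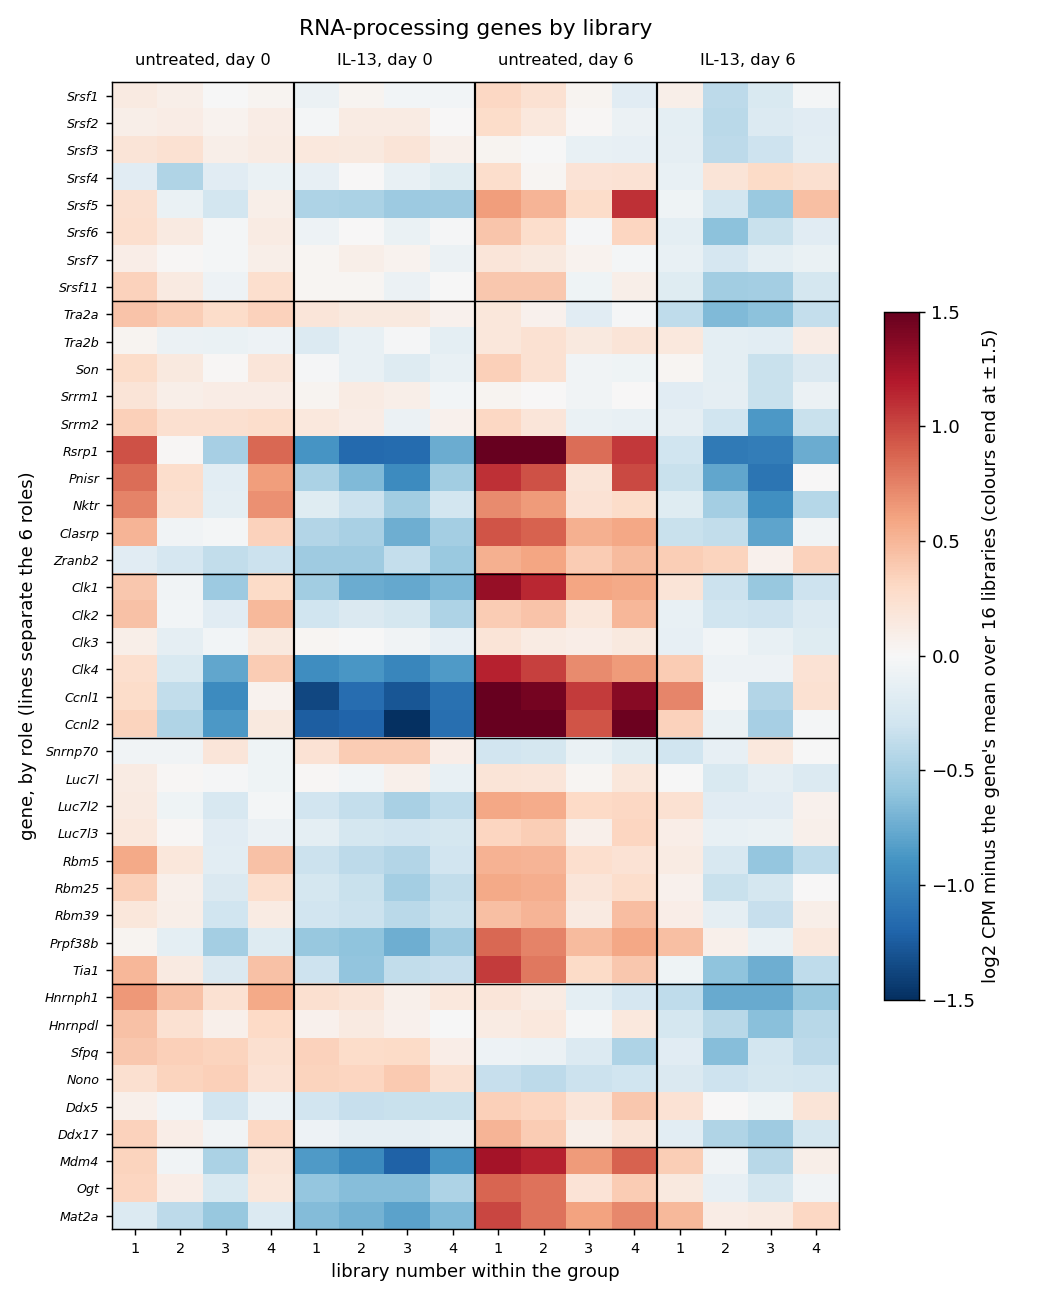
Log2 CPM of each of the 42 genes in each of the 16 libraries, minus the gene's mean over all libraries; colours end at 1.5 on either side, and lines separate the groups and the 6 roles. The untreated day 6 columns are the reddest for the cyclins, Rsrp1, Clk1, Clk4 and Mdm4, and columns 1 and 4 of untreated day 0 stand above columns 2 and 3.

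Within groups many genes of the list were highest or lowest in the same library. In untreated day 0 cells, library 1 held the highest CPM of 33 of the 42 genes and library 3 the lowest of 33, where library 1 was highest for 22.2% and library 3 lowest for 29.5% of all genes tested. In untreated day 6 cells library 1 was highest for 31 and library 3 lowest for 28 (25.5% and 23.1% of all genes). After IL-13 library 1 was highest for 21 and library 3 lowest for 20 at day 0 (24.8% and 26.9% of all genes). At day 6 these were 33 and 22 (34.6% and 30.5%), library 1 being the most often highest and library 3 the most often lowest among all genes too. The numbers name libraries and carry no order.

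The share of all counts that the 42 genes took was 0.705, 0.617, 0.548 and 0.669% in the untreated day 0 libraries and 0.508, 0.494, 0.474 and 0.499% after IL-13. At day 6 it was 0.721, 0.677, 0.565 and 0.605% in untreated and 0.515, 0.436, 0.398 and 0.476% in IL-13 libraries. The groups were separate on both days, and the IL-13 libraries of day 0 were the closest together. The median coefficient of variation over the list was 11.2% in untreated and 5.48% in IL-13 libraries at day 0, against 8.70% and 7.21% over all genes. At day 6 it was 11.9% and 13.0%, against 8.35% and 10.5%. The median of the list was above that of all genes in 3 of the 4 groups and below it in IL-13 cells at day 0. The list was drawn up with its spread known, so nothing is read from this. Its genes also had higher levels than the median gene, which the comparison does not match. In untreated day 0 library 1 the mean log2 CPM of the list was 6.68, against a median of 4.56 over all genes.

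Rsrp1 varied most in untreated cells, with a coefficient of variation of 43.9% at day 0 and 40.9% at day 6, and Ccnl2 came next at day 6 with 31.9%. At day 0 Ccnl2 (36.0%), Ccnl1 (34.2%) and Clk4 (33.3%) followed. In IL-13 cells of day 0 no gene of the list passed 14.8%, the value of Rsrp1. At day 6 Ccnl1 (34.2%), Pnisr (33.1%) and Srsf5 (31.1%) varied most after IL-13. The least variable was Srsf2 at 1.95% in untreated day 0 cells, and Srrm1 at 2.56% in untreated day 6 cells.

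**Figure D4:**
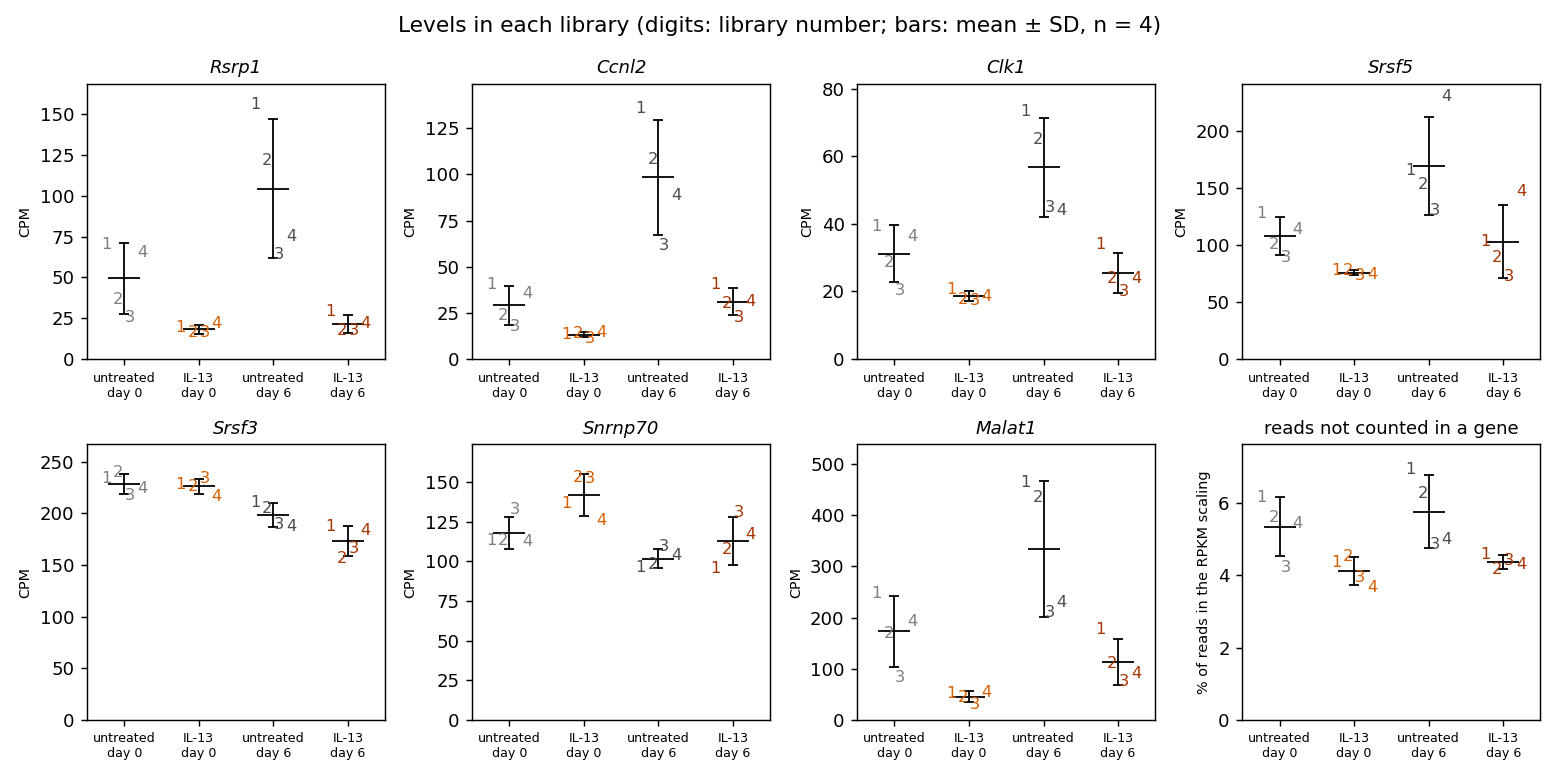
CPM of 6 genes of the list and of Malat1, and the share of reads in no gene's count, in each library; digits are library numbers and bars the mean and SD of 4 libraries. Rsrp1, Ccnl2, Clk1 and Malat1 share a layout in which untreated libraries 1 are high and libraries 3 low, Srsf3 is nearly level at day 0, and Snrnp70 goes the other way.

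Long RNAs that stay in the nucleus moved the same way. Malat1, a speckle RNA, was at 248, 169, 81.9 and 192 CPM in untreated day 0 libraries 1 to 4 and at 51.7, 44.2, 30.2 and 54.2 after IL-13. Neat1, the paraspeckle scaffold, was at 99.6, 54.7, 30.5 and 83.1 CPM against 15.04, 13.8, 10.4 and 15.8. In both, as in Rsrp1 and the cyclins, untreated libraries 1 and 4 were highest and library 3 lowest, and the groups did not overlap. At day 6 Malat1 was at 465, 435, 211 and 229 CPM in untreated and 177, 109, 74.0 and 91.2 in IL-13 libraries. Neat1 was at 237, 188, 89.9 and 116 against 43.4, 30.6, 19.6 and 29.0.

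Of 11 nuclear long RNAs listed 6 were tested, of which 5 fell at day 0 and 4 at day 6. Among all genes 24.2% and 4.34% were called lower. The highest log2 fold change of the 6 was 0.07 at day 0 and -0.04 at day 6. Their summed level was 232 to 503 CPM in untreated and 153 to 180 in IL-13 libraries at day 0, and 454 to 899 against 226 to 375 at day 6, with Miat at 0 in every group. The part of nuclear RNA in the differences of the 42 genes was not tested.

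At day 0 stromal markers summed to 8277 to 11460 CPM in untreated and 12840 to 14430 in IL-13 libraries, and fat cell markers to 190 to 207 and 217 to 230. Col1a1 made up most of the stromal sums, at means of 7581 and 11360 CPM. Of 9 stromal markers tested 5 were called higher and 0 lower, and of 4 fat cell markers 2 higher and 1 lower. Among all genes 23.7% were called higher and 24.2% lower. Markers of other cell types were near 0 in all groups. At day 0 the epithelial list of 4 genes summed to 0.268 to 0.678 CPM in untreated and 1.54 to 2.81 in IL-13 libraries, and the macrophage and leukocyte list of 7 to 2.34 to 4.03 and 5.18 to 7.48, with Adgre1 and Cd3e at 0. The skeletal muscle list of 4 genes went from 5.46 to 8.18 down to 3.20 to 4.69, with Myod1 and Myog at 0, and the endothelial list of 5 overlapped. At day 6 the ranges of all 6 lists overlapped between the groups. The part of these in the differences of the 42 genes was not tested.

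Other genes of the splicing pathway did not share one direction at day 0. Of 143 such genes in 6 lists, 141 were tested, and 28 rose and 42 fell at day 0, with a median of 0.01 against -0.01 for all genes. Among all genes tested 23.7% were called higher and 24.2% lower at that day. The lists were chosen with earlier results known. Core components of the small nuclear ribonucleoproteins and the spliceosome had 12 higher and 2 lower of 36. Among them Bud31 rose by 0.21 (78.8 ± 4.37 to 92.4 ± 3.39 CPM) and Snrpa1 by 0.31 (35.2 ± 2.88 to 44.1 ± 4.74 CPM), and Aqr and the branch point factor Sf3b1 each fell by 0.18. The Sm and LSm rings, which encircle the spliceosomal RNAs, had 7 higher and 1 lower of 15, with Lsm4 up 0.37 and Snrpd2 up 0.40, and Snrpd1 down (-0.14).

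Among the lists of regulators more genes were called lower than higher at day 0, where 24.2% of all genes were called lower and 23.7% higher. Other RBM, LUC7-like and alternative splicing regulators had 3 higher and 16 lower of 30. Mbnl1, a muscleblind protein, fell by 0.50 (113 ± 10.03 to 80.7 ± 6.20 CPM) and Celf2 by 0.36, and Rbm14 rose by 0.28 and Rbm8a by 0.19. Other hnRNPs had 2 higher and 11 lower of 28, with Hnrnpr at -0.34 and Taf15 at -0.26, and Pcbp1 at 0.22 and Hnrnpab at 0.25 in the other direction. Other SR proteins and SR kinases had 1 higher, the nuclear importer Tnpo3 (0.15), and 7 lower of 18 tested, led by the kinases Hipk1 (-0.34) and Srpk2 (-0.31).

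Genes of nonsense-mediated decay and the exon junction, 14 in all, were divided at day 0, with 3 higher and 5 lower. The decay kinase Smg1 fell by 0.41 and Magohb by 0.34, and the helicases Upf1 and Eif4a3 rose by 0.29 and 0.27. At day 6, 2.21% of all genes were called higher and 4.34% lower. Of the 141 pathway genes 1 rose and 12 fell, with a median of -9.27e-05. These were 7 lower and 1 higher of the 30 other regulators, 3 lower of 18 other SR proteins and kinases, and 2 lower of 28 other hnRNPs. The named ones were Prpf39 of the U1 particle (29.6 ± 6.23 to 12.6 ± 3.88 CPM, -1.22), Sugp2 (-0.79), Ewsr1 (-0.48), Acin1 (-0.36) and Pnn (-0.40), with Rbm3, a cold-inducible protein, higher (0.22). No core, Sm or LSm, or decay gene was called by edgeR at day 6, where 11 of 36, 4 of 15 and 2 of 14 had an unadjusted p under 0.05. So had 3325 of all 12352 genes tested, and nothing is read from these numbers. The pathway counts have the same dependence on single libraries as the day 6 calls above.

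Between the days genes of the list went in both directions. In untreated cells 20 of the 42 genes were higher at day 6 than at day 0, 7 were lower and 15 did not pass, where 41.5% of 13157 genes tested were called higher and 39% lower. In pre-treated cells 13 were higher, 14 lower and 15 not called (40.6% and 40.3% of all genes). Every day 6 library was above every day 0 library for 14 genes in untreated and 11 in pre-treated cells (38.8% and 37.3% of all genes), and below for 7 and 13 (36.6% and 37.4%). Called higher in both were 13 genes and called lower in both 7, and 0 were called in opposite directions. The same counts over all genes were not made, so nothing about the list is read from them. The days came in separate tables, so that differentiation and anything else that differed between the days or the tables cannot be told apart.

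Of the 6 kinases and cyclins 4 were higher at day 6 in untreated and 3 in pre-treated cells, and 0 were lower. Among all genes 41.5% and 40.6% were called higher. Ccnl2 rose from 29.2 ± 10.5 to 98.4 ± 31.4 CPM in untreated cells (log2 fold change 1.75, SE 0.28, adjusted p = 5.2e-05) and from 13.3 ± 1.59 to 31.1 ± 7.40 in pre-treated cells (log2 fold change 1.23, SE 0.31, adjusted p = 0.00234). Ccnl1 rose in both (log2 fold change 1.53, SE 0.24, adjusted p = 4.04e-05, and log2 fold change 1.42, SE 0.27, adjusted p = 0.000249). Clk4 rose as well (log2 fold change 0.92, SE 0.19, adjusted p = 0.000247, and log2 fold change 1.03, SE 0.21, adjusted p = 0.000206). In these 3 genes every day 6 library was above every day 0 library of the same treatment. Clk1 passed in untreated cells (log2 fold change 0.86, SE 0.21, adjusted p = 0.00189) and not in pre-treated cells (log2 fold change 0.45, SE 0.23, adjusted p = 0.0888).

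The 3 genes outside the machinery rose in both treatments. Mat2a went from 105 ± 12.2 to 228 ± 26.7 CPM in untreated cells (log2 fold change 1.12, SE 0.10, adjusted p = 1.58e-09) and from 81.0 ± 3.78 to 159 ± 20.1 after IL-13 (log2 fold change 0.98, SE 0.10, adjusted p = 1.54e-08). Mdm4 rose by 0.97 and 1.00 and Ogt by 0.49 and 0.51. Zranb2 of the SR-related group rose by 0.77 and 0.78, and Prpf38b by 0.86 and 0.77. Rsrp1, which varied most, rose in untreated cells with overlapping groups (log2 fold change 1.07, SE 0.34, adjusted p = 0.0101) and was at log2 fold change 0.23, SE 0.39, adjusted p = 0.602 in pre-treated cells.

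Of the 6 hnRNP, paraspeckle and DEAD-box genes 3 were lower and 1 higher at day 6 in untreated cells, near the 39% of all genes called lower, and 5 were lower and 1 higher in pre-treated cells. Nono fell from 536 ± 26.7 to 346 ± 9.18 CPM in untreated cells (log2 fold change -0.63, SE 0.05, adjusted p = 4.19e-10), as did Sfpq from 234 ± 11.3 to 162 ± 18.8 CPM in the same cells (log2 fold change -0.54, SE 0.09, adjusted p = 1.79e-05), both with no overlap. Hnrnph1 fell by 0.49 and, in pre-treated cells, by 0.77. Ddx5 rose by 0.40 and 0.42. Of the SR proteins, 2 were higher (Srsf4 and Srsf5) and 1 lower (Srsf3) in untreated cells, and 1 higher and 5 lower in pre-treated cells. The SR-related proteins had 4 higher and 2 lower of 10 in untreated and 1 and 3 in pre-treated cells, and the U1 and spliceosome-associated group 6 higher and 1 lower of 9, and 4 and 1. Among all genes 41.5% were called higher and 39% lower in untreated cells, and 40.6% and 40.3% in pre-treated cells. Roles were not tested against each other. Tra2a fell in both (log2 fold change -0.34, SE 0.07, adjusted p = 0.00029, and log2 fold change -0.63, SE 0.08, adjusted p = 1.61e-07). Among the 141 pathway genes, 28 rose and 71 fell in untreated cells, led downward by core components, 23 of 36 lower, such as the U5 protein Eftud2 (169 ± 6.24 to 90.1 ± 6.58 CPM).

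**Figure D5:**
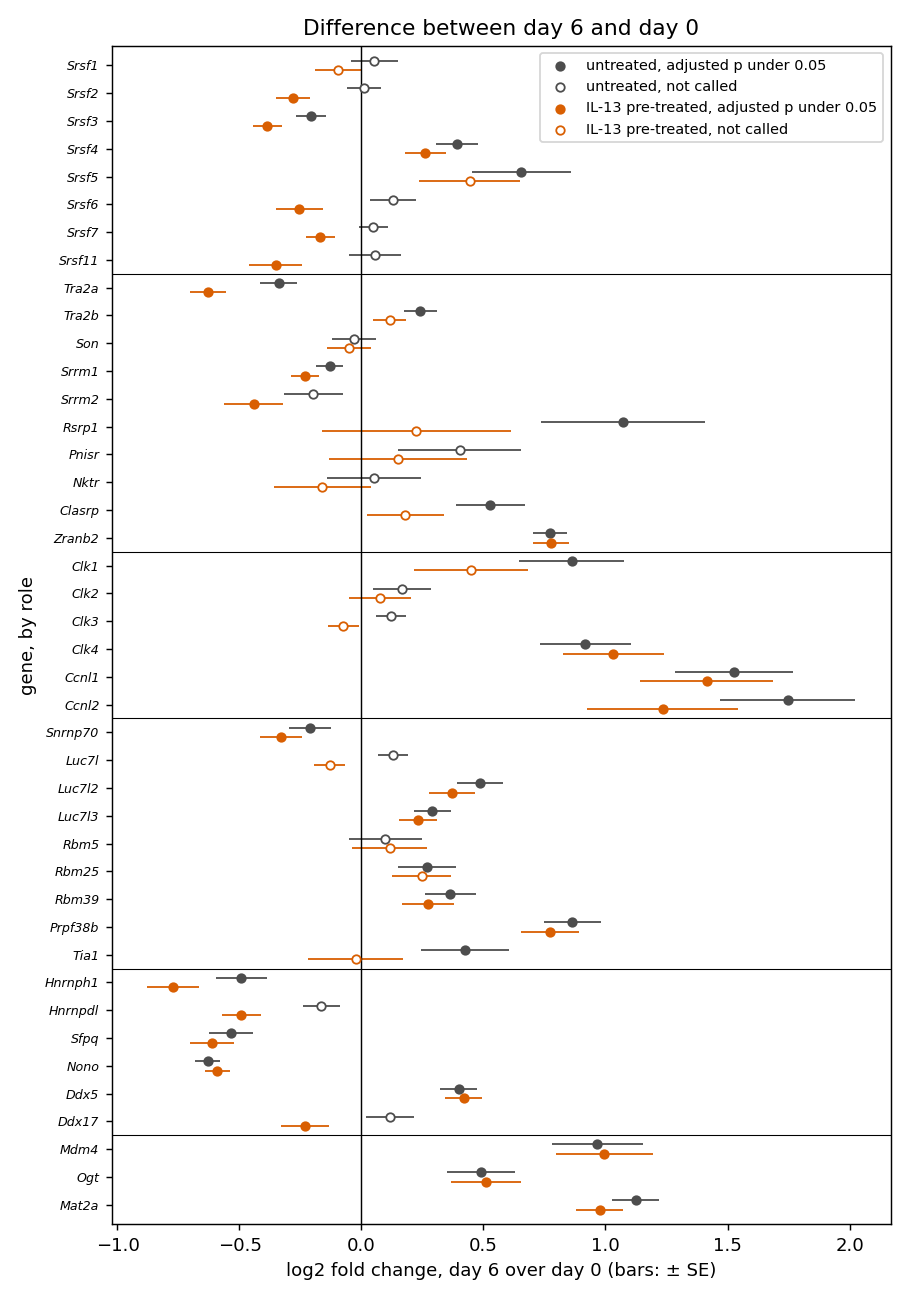
Log2 fold change from day 0 to day 6 for each of the 42 genes in untreated and in IL-13 pre-treated cells, with bars of 1 SE; filled points have an adjusted p under 0.05. Clk1, Clk4, the cyclins, Mdm4, Ogt and Mat2a lie to the right, and Hnrnph1, Sfpq and Nono to the left, in both.

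The IL-13 difference was also tested for a change between the days. In edgeR's fit of all 16 libraries, without a replicate block, none of the 42 genes was called for the IL-13 effect at day 6 minus that at day 0, where 9 had an unadjusted p under 0.05 and DESeq2 called 0 as well. Of all 13157 genes tested, 3.12% were called higher and 4.95% lower, and 2684 had an unadjusted p under 0.05 in edgeR's fit. The 9 of 42 are near that share. The smallest adjusted p was 0.0715, for Hnrnpdl, which was called without untreated day 0 library 1 (adjusted p = 0.0474), as Srsf6 was without untreated day 6 library 3 (adjusted p = 0.0436). For Rsrp1 the difference was -0.85 (SE 0.51, adjusted p = 0.399), and the median of the list was -0.15 against -0.02 for all genes. In that fit no gene called on 1 day alone was shown to differ between the days.

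Levels per length were set side by side with the deposited TPM values, within each table. In untreated day 0 cells the most abundant were Nono at 452 ± 4.52 and Ddx5 at 358 ± 51.2 TPM, and 11 genes had a mean of 100 TPM or more. Clasrp was lowest at 5.69 ± 1.37 TPM, followed by Tia1 (8.85 ± 2.31) and Clk4 (9.77 ± 3.68), and these neighbours overlapped within 1 SD. The kinases lay between Clk4 and Clk3 (19.9 ± 2.72), and the cyclins at 11.5 ± 4.38 for Ccnl1 and 20.7 ± 8.32 for Ccnl2. In untreated day 6 cells Ddx5 (407 ± 29.8) and Nono (253 ± 5.04) were again highest and Clasrp (7.08 ± 1.17) lowest.

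The IL-13 difference was set beside the annotated share of retained-intron bases within the list. Across the 42 genes, which share libraries and depth, Spearman's rho between that share and the log2 fold change was -0.15 at day 0 and -0.17 at day 6. The 31 genes with a share of 20% or more had a median log2 fold change of -0.39 at day 0 and -0.51 at day 6, and the other 11 of -0.26 and -0.28. Over all protein-coding genes tested rho was -0.03 at day 0 and -0.08 at day 6. Their medians were -0.0221 and -0.00655 at 20% or more, and -0.00103 and 0.0219 below it. The list was drawn up with its fold changes known, and a link between share and fall was not tested.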

How the data were processed

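Per the file headers, the authors deposited a total read count per gene for each of 16 libraries, in 1 table per day with 41325 genes each, together with RPKM and TPM values. The count held whole numbers with no normalization. The deposited RPKM values divide by exon length and library reads, and served here only to find the gene length (that of GENCODE M21) and the reads in no gene. The deposited TPM values were used for levels per length. The submitters' processing notes name the build mm10. Aligner, counting tool, gene annotation and use of strand in counting: not given in the sources used here. Each value column was matched to its library through the column name.

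Counts were tested with edgeR 4.0.16 in R 4.3.3 (quasi-likelihood, robust, TMM scaling, expression filter at a minimum count of 10 and total of 15), with Benjamini-Hochberg adjustment over all genes tested and a threshold of 0.05. IL-13 comparisons used their own 8 libraries, and the day comparisons and the difference between days all 16. CPM levels came from the TMM sizes of the fit over 16 libraries. Each SE is the log2 fold change over the root of its F statistic. No pair of libraries within a group came within sampling noise (lowest chi-square per degree of freedom 3.87). The script was tested on simulated data. Alternatives were DESeq2 1.42.0, other scalings, no filter, each library left out, pairs of untreated libraries left out, and a replicate block.

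The genes and gene lists were chosen with earlier results of these data known. Values in every library are given for a panel of 25 genes and for the member with the lowest and highest IL-13 fold change in each role. Of the pathway lists, the 2 genes called with the lowest adjusted p per direction may be named, of which 1 is not reported here. Sequences were copied from GENCODE M21 transcripts. A read count of 15253031 to 18112087 per library bounds counting error only.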

Additional observations from a re-analysis of the deposited data

Results flagged for a closer look

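In 4 of 180 groups of 4 libraries checked, a single library stood apart from the others by Dixon's criterion, which compares its gap to the group's range and which chance passes in about 1 of 20 groups. That is fewer than this rate would give, and the genes checked share libraries, so the checks are not independent. All 4 were library 3 of their group. Snrnp70 was at 132.9 CPM in untreated day 0 library 3, above the 112.2 to 112.9 of the others. Zranb2 was at 51.58 CPM in IL-13 day 0 library 3, above 44.92 to 45.78, and at 69.15 CPM in IL-13 day 6 library 3, below 83.06 to 85.47. Rbm39 was at 156.6 CPM in untreated day 6 library 3, below 194.8 to 202.4. These libraries differ in treatment or day, and the labels do not say whether a shared number marks a shared origin.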

How the results depend on the processing

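At day 0 total count scaling left 0 genes of the list higher, and the fit without untreated libraries 1 and 4 called 19 lower, 0 higher and 3485 of all genes. At day 6 DESeq2 called 1470 of all genes and the fit without untreated libraries 1 and 2 called 2, with 1 gene of the list (Rsrp1) lower. Leaving out 1 library gave 3 to 35 genes of the list lower at day 6 (60 to 2328 of all genes), 26 to 31 lower at day 0 and 0 to 1 lower for the difference between the days (Hnrnpdl without untreated day 0 library 1, Srsf6 without untreated day 6 library 3). For that difference total count scaling called 516 of all genes higher and 498 lower, and DESeq2 size factors 509 and 505, in place of 410 and 651. In the day comparisons leaving out a library gave 18 to 21 higher and 6 to 9 lower in untreated and 12 to 17 and 11 to 15 in pre-treated cells.

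Some values near 0 changed sign. At day 0 these were Srsf4 (-0.0264) and Nono (-0.10) under total count scaling, and Srsf7 (0.0295), Clk3 (0.0503) and Nono (-0.0284) without untreated libraries 1 and 4. With 1 library left out Luc7l ranged from -0.0713 to 0.00118 and Nono from -0.00129 to 0.046. At day 6 they were Nono (-0.00212) under total count scaling and Srsf4 with no filter (0.000952), and with 1 library left out Srsf4 ranged from -0.0664 to 0.0603. Of the other values for single genes after IL-13, 543 at day 0 and 428 at day 6 kept direction and call, 23 and 123 lost the call, and 15 and 31 gained it. The cause was not tested.

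The replicate block called 32 genes of the list lower at day 0 and 37 at day 6 (2812 of all genes). Of the difference between the days it called 7 lower and 1787 in all. Those 7 were Srsf2, Srsf6, Srsf11, Tra2a, Luc7l, Hnrnpdl and Ddx17. Same-numbered libraries correlated, over their deviations from the group means, at 0.241, -0.118, 0.343 and 0.156 at day 0 and 0.318, 0.0422, 0.298 and 0.331 at day 6, and not every library correlated best with its own number. The numbers were not taken as pairs.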
